A study of Mus musculus with 3 samples.

Results

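The dystrophin-glycoprotein complex links the actin cytoskeleton of a muscle cell through the membrane to the laminins of the surrounding matrix. In mature fibers dystrophin holds its inner side, whereas utrophin, the autosomal relative of dystrophin, takes that place in immature muscle and at the neuromuscular junction, and it binds the same partners. Dystroglycan spans the membrane, and syntrophins and dystrobrevins are cytoplasmic adaptors that tether signaling proteins such as neuronal nitric oxide synthase. RNA levels of 7 genes of this machinery were examined, namely *Utrn*, *Dag1*, *Sntb1*, *Sntb2*, *Dtna*, *Dtnb* and *Nos1*. They were chosen by name from 35562 genes and comprise 68 of 120686 matched transcripts.

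The libraries were made from 3 myoblast lines, numbered 66, 67 and 72, all of the genotype Dmd-mdx; Pax7-nGFP after CRISPR/Cas9 editing of the mdx mutation. Fibroblasts carrying the mdx allele and a heterozygous nuclear GFP reporter of *Pax7* were reprogrammed to iPSCs, edited so that the mutated *Dmd* exon is skipped and the reading frame restored, and injected into mouse blastocysts homozygous for Pax7-CreERT2 and Rosa26-lsl-DTA. In that host, tamoxifen kills cells that express *Pax7*. Satellite cells of the resulting chimeras were sorted and grown as myoblasts, the dividing cells that build muscle fibers, and the study describes the sequenced myoblasts as purified by FACS.

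All lines go back to edited iPSCs, and the editing was described for 1 clone. The labels do not give the clone behind each line, so the lines may not be independent edits. They form 1 condition, and the age and tamoxifen treatment of the chimera behind each line are not given in the labels. Unedited, wild-type and fibroblast libraries were not analysed here. Every value therefore describes the edited lines alone, and spread means spread between lines.

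Each library held between 66972426 and 73274315 estimated counts (reads divided over the transcripts they fit). Levels are given as TPM, the share of a transcript in its library after correction for length, on a scale of 1000000, which permits comparison of genes with each other. The labelled cell type was checked first. All 6 myoblast markers (*Pax7*, *Myf5*, *Myod1*, *Itga7*, *Des* and *Cdh15*) were above 10 TPM in every line. So were 5 of 6 differentiation markers, and the other, *Ckm*, had 4.52, 6.88 and 9.30 TPM in lines 66, 67 and 72. The 4 markers of pluripotent cells had at most 3 counts in any line. Of 6 fibroblast markers, *Col3a1* and *Col1a2* were above 1 TPM in every line, *Pdgfra* and *Dcn* stayed below it, and *Lum* and *Dpt* were at 0. This list summed to 153, 233 and 307 TPM in lines 66, 67 and 72, mostly from *Col3a1* (145, 205 and 270 TPM), and *Col1a2* (7.47, 28.3 and 37.0 TPM) was over 2-fold apart. Of 4 endothelial and 4 immune markers only *Cd68* reached 1 TPM in every line. The smooth muscle and pericyte list summed to 376, 159 and 189 TPM in lines 66, 67 and 72, of which *Rgs5* gave 356, 137 and 172 TPM. The other members of that list were *Mcam* with 19.4, 16.2 and 14.8 TPM, *Cspg4* with 0.813, 5.24 and 1.33 TPM, and *Myh11* and *Pdgfrb*, both below 0.25 TPM. *Rgs5* and *Cspg4* were over 2-fold apart. The part of fibroblasts, smooth muscle cells or pericytes in the levels of these sorted cells was not tested.

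Several findings turn on short stretches of sequence, which are printed here 5′ to 3′. The first is where the leading utrophin transcript, *Utrn-201* (ENSMUST00000076817), begins (GRCm38, minus strand, chr10:12861716-12861835, from the RefSeq start region). Its first 20 bases are in capitals and follow 100 bases of upstream DNA.
Utrn-201 start: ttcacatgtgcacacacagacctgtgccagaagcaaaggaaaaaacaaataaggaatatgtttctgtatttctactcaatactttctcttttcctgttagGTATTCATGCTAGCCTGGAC
The first exon of *Utrn-201* has the same boundaries as the second exon of *Utrn-205*, so the lower-case bases are the end of a 7019-base intron in the latter transcript. They close with a run rich in pyrimidines and with ag, the letters that end most introns.

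For dystroglycan, the sequence of interest is the end of the coding region, shared by its 4 complete coding transcripts (GRCm38, minus strand, chr9:108207262-108207321). Capitals mark codons that match CCNCCNCCNTAT, which encode the proline-rich tail through which dystroglycan binds dystrophin and utrophin. CCNCCNCCNTAC was also searched, in frame and on the coding strand, and this was the only match of either in the 2679 coding bases.
Dag1 coding end: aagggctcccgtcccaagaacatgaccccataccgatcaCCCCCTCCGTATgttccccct

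The next pair shows the exon that separates the 2 *Sntb2* coding transcripts. The 185 bases in capitals (GRCm38, plus strand, chr8:107009781-107009965) are coding in *Sntb2-203* and absent from *Sntb2-201*.
Sntb2-203: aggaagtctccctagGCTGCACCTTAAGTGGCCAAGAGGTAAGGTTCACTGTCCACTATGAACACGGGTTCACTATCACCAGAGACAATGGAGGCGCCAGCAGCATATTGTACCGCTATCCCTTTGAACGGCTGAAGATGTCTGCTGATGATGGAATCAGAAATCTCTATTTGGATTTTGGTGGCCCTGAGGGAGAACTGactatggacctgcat
Sntb2-201: aggaagtctccctagactatggacctgcat

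The last pair shows the exon, 102 bases in capitals (GRCm38, plus strand, chr5:117915547-117915648), that *Nos1-202* holds and *Nos1-206* lacks. It lengthens the coding sequence from 4287 to 4389 bases. An insert of this size between coding exons is the mark of the muscle form of the enzyme, known as nNOS mu.
Nos1-202: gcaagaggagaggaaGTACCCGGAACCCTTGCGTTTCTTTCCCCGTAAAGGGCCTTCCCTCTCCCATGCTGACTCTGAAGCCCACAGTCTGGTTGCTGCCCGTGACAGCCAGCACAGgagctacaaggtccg
Nos1-206: gcaagaggagaggaagagctacaaggtccg

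Of the 7 genes, 6 were expressed above 8 TPM in every line, and *Nos1* was below 0.13 TPM. Dystroglycan was highest with a mean of 76.0 TPM, and utrophin followed with 35.1 TPM. *Dtna* and *Sntb1* had 28.0 and 27.8 TPM. *Dtnb* and *Sntb2* had 13.4 and 9.38 TPM, and *Nos1* had 0.0740 TPM.

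**Figure D1:**
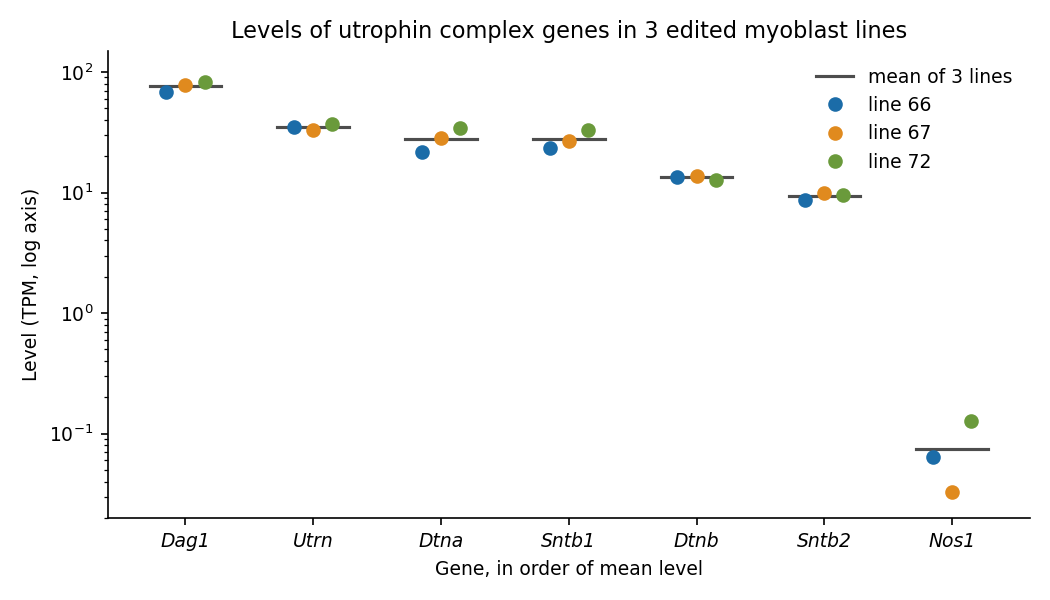
Levels of the 7 genes in TPM on a log axis, with 1 point per line and a bar at the mean of 3 lines. The genes run from *Dag1* (mean 76.0 TPM) to *Nos1* (mean 0.0740 TPM), and only *Nos1* lies below 8 TPM.

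Neighbors in this order were compared line by line. *Dag1* lay above *Utrn* with no overlap of the lines (difference 1.09 ± 0.14 in log2(TPM + 1), SD, n = 3). *Utrn*, *Dtna* and *Sntb1* could not be ranked beyond the spread between lines. *Utrn* was above *Dtna* within each of the 3 lines, but the ranges overlapped (difference 0.34 ± 0.29), and *Dtna* and *Sntb1* differed by 0.00 ± 0.08. The steps from *Sntb1* to *Dtnb* (0.99 ± 0.29), from *Dtnb* to *Sntb2* (0.47 ± 0.10) and from *Sntb2* to *Nos1* (3.27 ± 0.11) were free of overlap. The order of *Dtnb* and *Sntb2* turned without correction for length, with 4.23 and 5.87 in log2(CPM + 1). It also turned over protein-coding transcripts, with 2.57 and 3.37 in log2(TPM + 1).

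Utrophin is the member closest to dystrophin, with the same actin-binding and dystroglycan-binding ends. *Utrn* (GRCm38 chr10:12382188-12869365, minus strand) had 35.2, 32.8 and 37.3 TPM in lines 66, 67 and 72 (mean 35.1 ± 2.24, SD, n = 3), resting on between 13645 and 16392 estimated counts. The 3 lines were within 1.14-fold of each other. In line 66 the 427 genes of chromosome 10 lay, in the median, 0.28 in log2 above their level in both other lines, whereas for *Utrn* itself the same measure was 0.01. *Gm48798*, a gene model that still awaits experimental evidence inside *Utrn* on the same strand, had at most 0.343 TPM.

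*Dmd*, the gene of dystrophin itself, had 1.97, 4.61 and 3.66 TPM in the same libraries. *Utrn* therefore exceeded *Dmd* 17.9-fold, 7.11-fold and 10.2-fold per unit of length in lines 66, 67 and 72. The difference in log2(TPM + 1) was 3.08 ± 0.51 (SD, n = 3), in the same direction in all 3 lines (exact sign-flip test over lines, two-sided p = 0.25, adjusted p = 0.25 over 3 paralog pairs). With 3 lines, 0.25 is the smallest p this test can give, so it cannot reach 0.05. Without correction for length the difference was 4.61 in log2(CPM + 1), and over protein-coding transcripts it was 3.55 in log2(TPM + 1).

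The gap was wider for the long forms. *Utrn-201* and *Utrn-205*, which share 1 coding sequence of 10290 bases, together had 30.0, 27.3 and 30.9 TPM. *Dmd-203*, the transcript with the longest dystrophin coding sequence (11034 bases), had 0.32, 0.58 and 0.74 TPM. Among *Dmd* transcripts, the short *Dmd-201*, with 1851 coding bases, was higher at 0.70, 2.33 and 1.39 TPM. *Dmd-203* made up 16.3% ± 3.72 of the TPM of its gene (SD, n = 3), against 83.9% ± 1.27 for the pair of full-length utrophin transcripts. In shares of estimated counts, which weight long transcripts, *Dmd-203* held 50.8% of its gene. *Dmd-201* has 0% of its 31-base words to itself, so the split of reads between *Dmd* transcripts was an estimate.

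*Utrn-201* alone accounted for 73.2% ± 0.81 of *Utrn* (26.1, 24.0 and 27.0 TPM), and its share moved by less than 2 percentage points between lines. *Utrn-205* (ENSMUST00000218635), which starts 7630 bases further upstream with a first exon of 611 bases, had 3.95, 3.37 and 3.89 TPM. *Utrn-212*, an annotated fragment with another upstream first exon, had 2.68, 2.25 and 2.79 TPM. All transcripts with a first exon upstream of the start printed for *Utrn-201* summed to 22.0% ± 1.10 of the gene. Only 0.0162% of the 31-base words of *Utrn-201* occur in no other transcript, against 5.17% for *Utrn-205*. *Utrn-201* also runs 1192 bases beyond the 3′ end of *Utrn-205*, so reads from that end can bear on the split. These shares are estimates for whole transcripts and do not measure use of the starts.

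Short utrophins that begin late in the gene were a small part. *Utrn-204* and *Utrn-206* each have their own first exon and share the last 2818 coding bases of *Utrn-201*, which encode the dystroglycan-binding and dystrobrevin-binding end without the actin-binding end. *Utrn-204* had 0.58, 1.21 and 1.25 TPM and was lowest in line 66. *Utrn-206* had 0.29, 0.23 and 0 TPM, the latter in line 72. Together they made up 3.39% ± 0.97 of *Utrn* (SD, n = 3).

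The genes nearest to *Utrn* in level and pattern, by the root mean square difference of log2(TPM + 1) over the 3 lines, were *Mia3* (0.0089), *Fnbp4* (0.0125) and *Fbxw8* (0.0174). They are a description only, since 152 of 8427 others (mean of 10 TPM or more) lay within 0.1 of *Utrn*.

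Dystroglycan is made as a precursor that is cut into an outer laminin-binding subunit and a membrane-spanning subunit, whose tail is encoded by the sequence printed for *Dag1*. *Dag1* (chr9:108204634-108263958, minus strand) had 68.6, 77.5 and 81.9 TPM in lines 66, 67 and 72 (mean 76.0 ± 6.76, SD, n = 3). It was lowest in line 66 and highest in line 72, a range of 1.19-fold. Nearly all of it, 95.4% ± 0.68, came from the 4 transcripts with the whole coding sequence. None of the 31-base words of the gene occurs in another gene.

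Those 4 transcripts differ outside the coding sequence. *Dag1-204* (ENSMUST00000191899) had 38.9, 41.5 and 45.3 TPM, and *Dag1-201* had 15.6, 18.6 and 19.4 TPM. *Dag1-202* and *Dag1-203* had at most 10.2 and 3.95 TPM. Their order was the same in every line, and the share of *Dag1-204* was 55.2% ± 1.60 (SD, n = 3).

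*Dag1-202* and *Dag1-204* begin within 50 bases of a RefSeq start, and together had 47.2, 51.7 and 54.9 TPM. Of the 31-base words of *Dag1-204*, 24.5% occur in no other transcript, against 0.664% for *Dag1-202*. *Dag1-204* also has the furthest 3′ end of the gene, so reads from that end can bear on the split. These levels are estimates for whole transcripts and do not measure use of the RefSeq start. The 250 bases before that start (RefSeq, GRCm38, chr9:108263959-108264208, minus strand) are shown because transcripts annotated to begin there held most of the *Dag1* level. Capitals mark GGGCGG, the letters bound by Sp1-type factors, and CANNTG, the E-box bound by MyoD-type factors.
Dag1 promoter: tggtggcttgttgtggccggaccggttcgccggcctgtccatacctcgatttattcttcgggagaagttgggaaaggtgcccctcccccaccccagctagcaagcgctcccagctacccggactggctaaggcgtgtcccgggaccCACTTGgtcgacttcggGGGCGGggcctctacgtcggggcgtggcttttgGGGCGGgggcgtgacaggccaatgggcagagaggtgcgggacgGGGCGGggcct
It holds GGGCGG 3 times and CANNTG once, counted on both strands and with no overlap between the motifs. Of 32851 RefSeq windows of 300 bases, 35.7% hold GGGCGG and 72.3% hold CANNTG at least once. CCGGAA, the core letters of GABP sites, occurs in 14.9% of windows and in neither of the 2 *Dag1* windows. Nor does CCGGAA occur in the *Utrn* window around the start of *Utrn-201*, where the upstream bases are intron in *Utrn-205*. The upstream starts of *Utrn-205* and *Utrn-212* had no window, so CCGGAA was not searched there.

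The genes nearest to *Dag1* in level and pattern were *Larp4* (root mean square difference 0.0101), *Gga2* (0.0140) and *R3hdm1* (0.0180), among 112 genes within 0.1.

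Syntrophins bind dystrophin, utrophin and dystrobrevins, and carry the PDZ domain that holds nitric oxide synthase and ion channels. *Sntb1* (chr15:55636388-55906949, minus strand) had 23.3, 27.0 and 33.1 TPM in lines 66, 67 and 72 (mean 27.8 ± 4.92, SD, n = 3). *Sntb2* (chr8:106935750-107019714, plus strand), the syntrophin associated with utrophin at the synapse, had 8.71, 9.84 and 9.58 TPM (mean 9.38 ± 0.590). *Sntb1* was highest in line 72, while the lines lay within 1.13-fold of each other in *Sntb2*.

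*Sntb2* was below *Sntb1* in each of the 3 lines, by 1.46 ± 0.20 in log2(TPM + 1) (SD, n = 3; two-sided p = 0.25 and adjusted p = 0.25 by the exact sign-flip test). In TPM, *Sntb1* exceeded *Sntb2* 2.68-fold, 2.74-fold and 3.45-fold in lines 66, 67 and 72. Without correction for length the difference shrank to -0.50 in log2(CPM + 1), because the leading *Sntb2* transcript is 9945 bases long and that of *Sntb1* 4919 bases.

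*Sntg1* and *Sntg2*, the gamma-syntrophins best known from brain, stayed at or below 0.15 TPM.

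*Sntb1* was read from essentially 1 transcript, *Sntb1-201* (ENSMUST00000039769), which made up 99.0% ± 1.10 of its TPM. The noncoding *Sntb1-203* had at most 0.506 TPM. In *Sntb2*, *Sntb2-203* (ENSMUST00000212524) had 8.08, 9.32 and 8.59 TPM, and *Sntb2-201*, which lacks the exon printed for *Sntb2-203*, had 0.63, 0.51 and 0.87 TPM. Both coding sequences share their first 1285 bases and end differently, since 185 is not a multiple of a codon. The form with the exon was 92.4% ± 2.56 of the gene. Only 0.908% of the 31-base words of *Sntb2-201* are its own, so its level rests on few reads.

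Dystrobrevins are relatives of the C-terminal end of dystrophin that bind it or utrophin through coiled coils. *Dtna* (chromosome 18, 23415135 to 23659715, plus strand) had 21.8, 28.2 and 34.0 TPM in lines 66, 67 and 72 (mean 28.0 ± 6.09, SD, n = 3). The lines were 1.53-fold apart on the TPM + 1 scale, the widest range of the 6 expressed members. *Dtnb* (chr12:3572381-3781796, plus strand), the dystrobrevin of non-muscle tissues, had 13.5, 13.8 and 12.8 TPM (mean 13.4 ± 0.497).

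*Dtnb* was below *Dtna* in each line, by 0.99 ± 0.35 in log2(TPM + 1) (SD, n = 3; two-sided p = 0.25 and adjusted p = 0.25 by the exact sign-flip test). The size of the gap depended on the measure: *Dtnb* minus *Dtna* was -1.90 in log2(CPM + 1) and -2.19 over protein-coding transcripts. *Dtna* exceeded *Dtnb* 1.61-fold in line 66, 2.05-fold in line 67 and 2.65-fold in line 72. The share of *Dtna* in the summed TPM of both genes was accordingly 61.7%, 67.2% and 72.6%.

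Several coding forms contributed to *Dtna*. The long *Dtna-202* (ENSMUST00000115832), with 2046 coding bases, had 8.15, 10.1 and 11.6 TPM. *Dtna-203*, with 2238 coding bases and the same last 564, had 3.66, 4.54 and 5.36 TPM. The short *Dtna-201*, with 1113 coding bases of which the first 1085 equal those of *Dtna-202*, had 5.52, 6.97 and 10.3 TPM, and *Dtna-206*, of intermediate size, had 2.95, 3.70 and 4.96 TPM.

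All 4 were lowest in line 66 and highest in line 72, as was the gene. The 2 long forms made up 52.0% ± 2.17 of *Dtna*, the intermediate form 13.7% ± 0.76 and the short form 26.8% ± 3.04 (SD, n = 3). In shares of estimated counts, which weight long transcripts, *Dtna-202* held 58.0% in place of 35.8% of the gene.

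The summed TPM of *Dtnb* varied least between lines among the 6 expressed members (SD 0.05 in log2(TPM + 1)), while its transcript shares varied most. The small spread did not hold in log2(CPM + 1), where the SD of *Dtnb* was 0.14 and that of *Utrn* 0.08, nor over protein-coding transcripts, where it was 0.34, the largest of the 6. *Dtnb-219*, annotated as a target of nonsense-mediated decay, had the highest mean share (16.2%), with 3.30, 0.99 and 2.19 TPM in lines 66, 67 and 72. *Dtnb-202* and *Dtnb-204*, of the same class, had 3.46, 2.11 and 0.56 TPM and 0.48, 0.42 and 2.47 TPM. Of the coding transcripts, *Dtnb-225* had 1.87, 1.36 and 2.41 TPM and *Dtnb-201* had 0.04, 2.58 and 0 TPM.

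Other coding transcripts were *Dtnb-210*, with 0.68, 1.35 and 0.95 TPM, and *Dtnb-223*, with 0.84, 1.08 and 0.18 TPM. *Dtnb-202* led in line 66 and *Dtnb-201* in line 67, in TPM and in estimated counts. In line 72 the 388-base noncoding *Dtnb-213* led in TPM (2.56), but it held only 2.34% of the counts of the gene there, where *Dtnb-204* held 24.4% and *Dtnb-225* 23.0%.

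Of the 25 annotated *Dtnb* transcripts, 17 had an estimated count above 0 in a line, among them *Dtnb-216* with only 0.00129 in line 66. Protein-coding ones made up 31.5%, 49.6% and 32.0% of the gene in lines 66, 67 and 72, or 4.26, 6.82 and 4.10 TPM. None of the 31-base words of *Dtnb-202*, *Dtnb-204* and *Dtnb-225* is found in that transcript alone, so the assignment of reads between them was an estimate, and the differences between lines have no replicate. At the gene, 93.7% of the words occur in no other gene, the lowest share of the 7 members. *Dtnbos*, an antisense gene that overlaps *Dtnb*, had at most 9.44 counts.

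**Figure D2:**
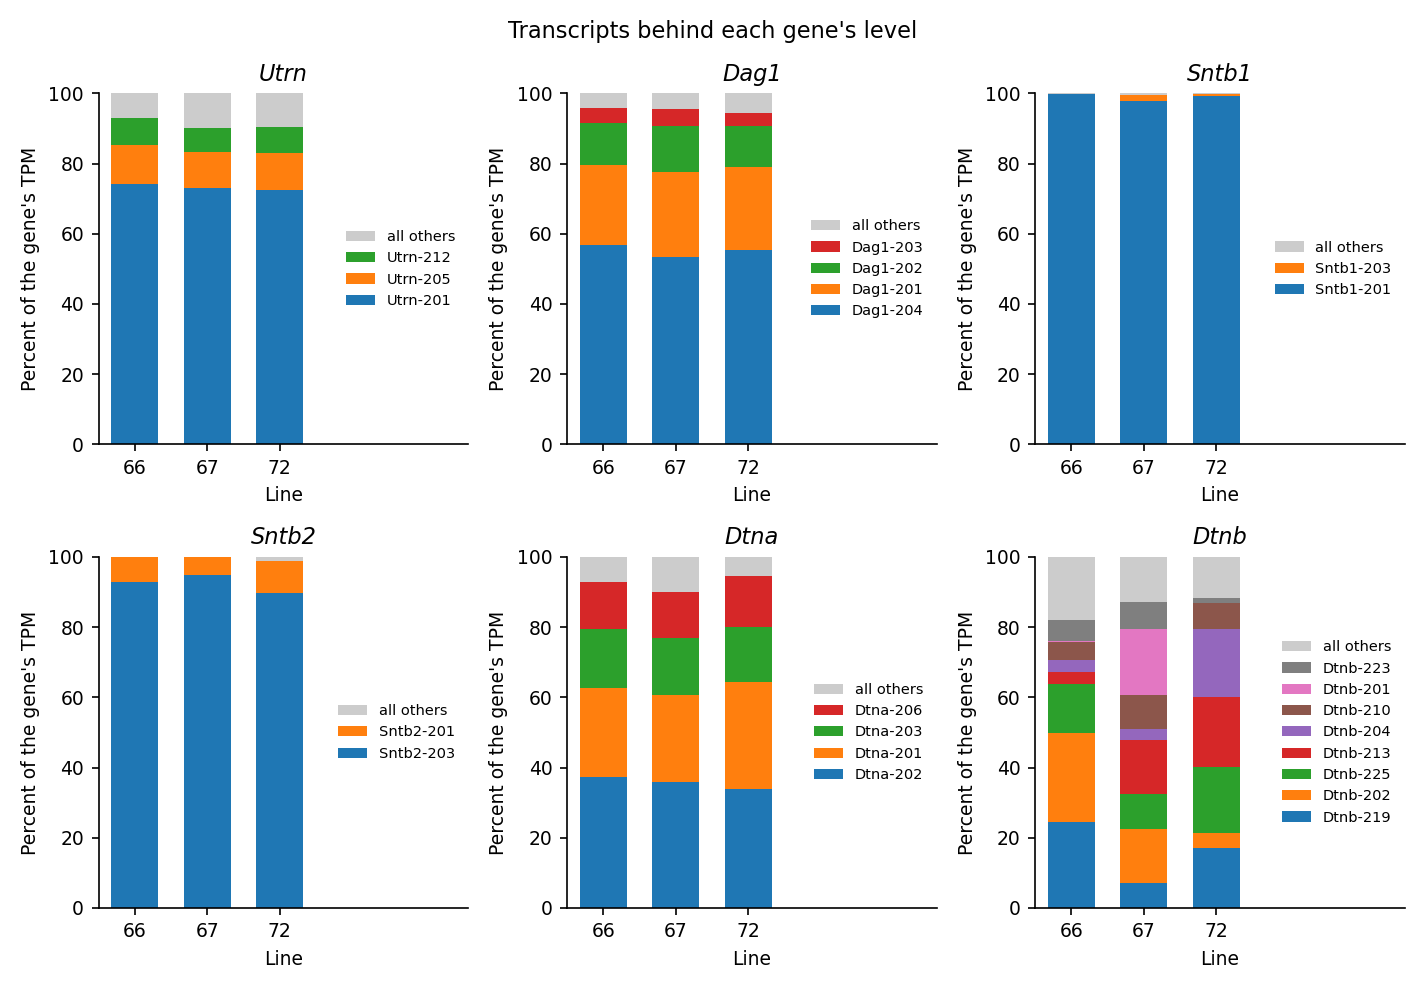
Share of each gene's TPM by transcript in lines 66, 67 and 72, as stacked bars that sum to 100 percent, for the 6 members above 8 TPM. Named transcripts reached 5 percent in a line or were among the leading 2, and the remainder is gray. The SD over lines of a named share was at most 3.04 percentage points in the other 5 genes and up to 10.7 in *Dtnb*.

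Neuronal nitric oxide synthase is anchored to the complex in mature fibers through a syntrophin and dystrophin. *Nos1* (chr5:117781032-117958840, plus strand) had 0.0634, 0.0327 and 0.126 TPM in lines 66, 67 and 72, from 35.9, 17.1 and 68.2 estimated counts. The 95% Poisson intervals of these counts, which cover counting error only, were 25.1 to 49.7, 9.96 to 27.3 and 53.0 to 86.4. Detection was thus above the limit of 3 counts in all lines. The interval of line 72 overlapped neither that of line 66 nor that of line 67, but 1 library per line leaves no replicate for these differences.

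All *Nos1* counts were assigned to *Nos1-206* (ENSMUST00000142742), and the other 6 transcripts, *Nos1-201* included, were listed at 0. Among them was *Nos1-202*, which carries the exon printed for it. With so few counts over a transcript of 10123 bases, absence of that exon could not be judged at this depth. *Nos2* and *Nos3*, the inducible and endothelial synthases, reached at most 0.0462 and 0.0330 TPM.

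Differences between lines were read against all genes. Of the 6 members with a mean of at least 1 TPM, 0 were over 2-fold apart in any pair of lines, where 4.05% of 12528 genes at this level were. At 1.5-fold the count was 1 of 6, *Dtna*, against a background of 14.2%. The median range between lines was 0.22 in log2(TPM + 1) for the 6 members and 0.26 for all genes. Only *Dtna* and *Sntb1* had a range above that of the median gene.

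*Dag1*, *Dtna* and *Sntb1* were lowest in line 66 and highest in line 72, which is 3 of the 6 members against 27% of all genes tested. The count was also 3 with TMM or DESeq2 scaling, where the background was 22.3% and 22.7%. Differentiation markers followed the same order, with 5 of 6 (all but *Tnnt3*) lowest in line 66 and highest in line 72 and a summed level of 1003, 1484 and 1755 TPM. Of 6 myoblast markers only *Pax7* did so, and their sum was 1977, 1902 and 1809 TPM. The summed level of the fibroblast list, *Col3a1* and *Col1a2* had this order too. *Pdgfra* and *Dcn* of that list, both below 1 TPM, were highest in line 66, and *Lum* and *Dpt* were at 0. The part of differentiation or of fibroblasts in the levels of the 3 members was not tested, and more differentiating cells and more RNA per cell cannot be told apart in bulk samples.

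**Figure D3:**
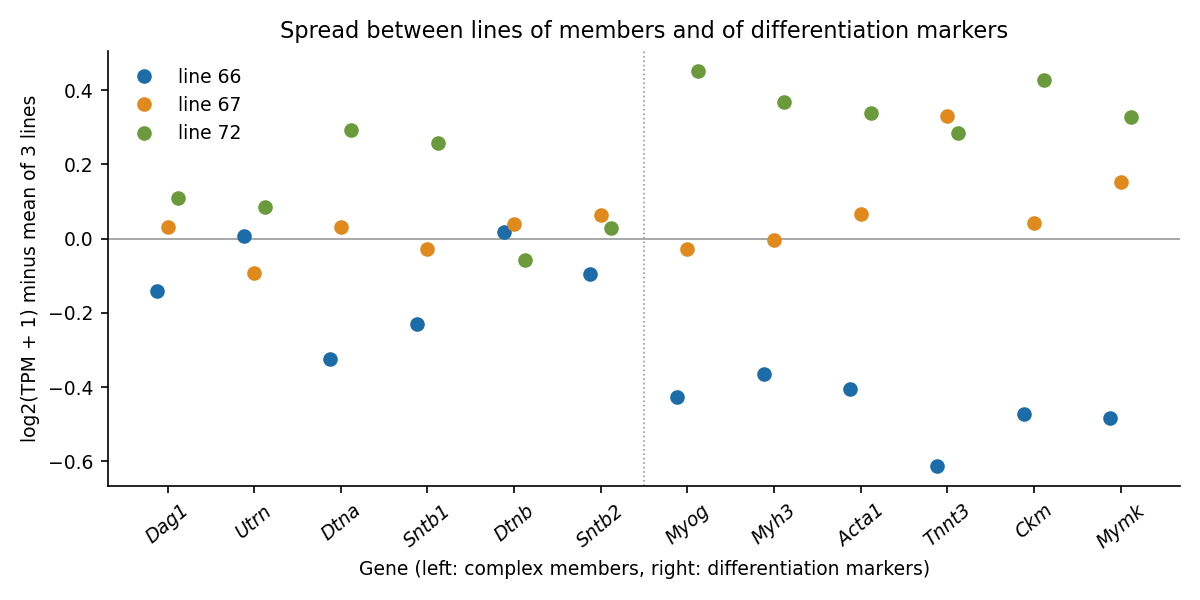
Difference of each line from the mean of the 3 lines in log2(TPM + 1), for the 6 expressed members (left of the dotted line) and 6 differentiation markers (right), with 1 point per line. *Dag1*, *Dtna* and *Sntb1* share the order of most markers, while *Utrn*, *Dtnb* and *Sntb2* do not.

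The genes around the complex were then counted. Of 10 other genes of the dystrophin complex, 7 had at least 1 TPM in every line and 4 at least 10 TPM. These 4 were the sarcoglycans *Sgca* (134, 101 and 108 TPM), *Sgcb* and *Sgce*, and sarcospan, *Sspn* (22.5, 26.0 and 35.0 TPM). *Sgca* encodes a sarcoglycan of striated muscle and was above *Dag1* in each of the 3 lines. It lies on chromosome 11, where the median shift of line 66, measured as for chromosome 10, was 0.32 in log2. None of the 8 genes of this list whose mean reached 1 TPM was over 2-fold apart on the TPM + 1 scale. The share over all genes at this level was 4.05%.

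Of 14 ligands and anchors, 12 had at least 1 TPM in every line. *Lama2*, the laminin chain of muscle basement membrane and the main ligand of dystroglycan, had 27.7, 25.6 and 33.2 TPM, while *Lama1* had at most 0.0720 TPM. *Plec*, which anchors intermediate filaments at dystroglycan, had 88.8, 106 and 105 TPM, and *Agrn*, the synaptic organizer that binds dystroglycan, had 15.3, 13.3 and 19.7 TPM. Only *Lama5*, at 20.8, 45.6 and 28.3 TPM, was over 2-fold apart.

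Of 8 listed genes of the nitric oxide pathway, 3 reached 1 TPM in all lines. These included *Dynll1*, which binds nitric oxide synthase but serves many other proteins, and the cGMP-dependent kinase *Prkg1*. *Prkg1* had 2.79, 4.35 and 7.34 TPM and was over 2-fold apart. *Gucy1a1*, a subunit of the nitric oxide receptor, was at or below 0.197 TPM, and *Nos1ap*, an adaptor of *Nos1*, had 0.552, 0.769 and 1.13 TPM.

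All 13 genes of synaptic partners and utrophin transcription factors had at least 1 TPM in every line, and 11 had at least 10 TPM. *Chrna1*, the alpha subunit of the acetylcholine receptor, had 515, 536 and 528 TPM, and *Rapsn*, the scaffold that clusters the receptor and binds dystroglycan, had 55.3, 72.7 and 70.1 TPM. *Gabpa* and *Gabpb1*, the subunits of the GABP factor known to act on the utrophin promoter, had means of 98.7 and 30.5 TPM. *Erf*, a repressor of that promoter, had 34.1 ± 1.13 TPM. None of the 13 was over 2-fold apart.

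**Figure D4:**
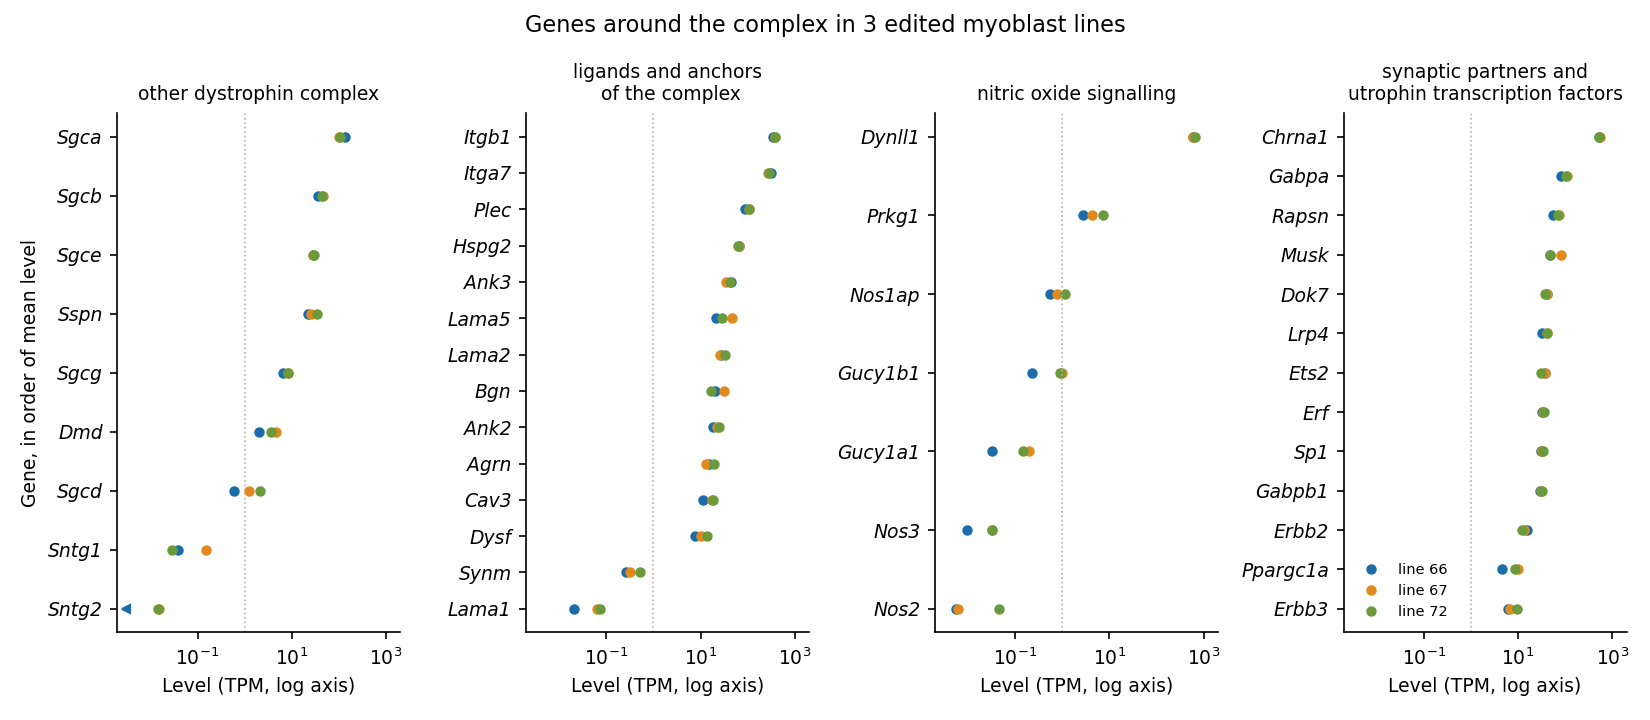
Levels in TPM on a log axis of genes around the complex, in 4 panels with 1 point per line; the dotted line marks 1 TPM and a triangle at the left edge a value of 0. Synaptic genes and utrophin regulators all lie right of the dotted line, whereas *Nos2*, *Nos3* and *Gucy1a1* lie left of it.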

How the data were processed

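Poly-A-enriched RNA of 3 edited myoblast lines was sequenced after stranded library preparation. The tables deposited by the authors list 121798 transcripts, each with an estimated count, a read being split between the transcripts it fits, and a TPM value, the count divided by the effective length (also deposited) and scaled to 1000000 per library. The submitters' processing notes name bcl2fastq 2.20, fastp 0.20, kallisto 0.46.1 and GRCm39. The annotation release and the strand setting are not given in the sources used here.

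Transcripts were matched by identifier to GENCODE M21 (GRCm38), which supplied names and coordinates. 1112 had no match and carried between 0.493% and 0.535% of the counts. All 68 transcripts of the 7 genes had the length given in that release. TPM values and estimated counts were summed per gene. Levels were compared as log2(TPM + 1), which understates the change of low genes, and a gene was called apart with 2 lines over 2-fold apart on that scale. Means and SDs are over 3 lines, 1 library each. Nothing in the sources used here ties a library to more than 1 culture of its line. Paralog pairs were compared with exact sign-flip tests (Benjamini-Hochberg adjustment over 3 pairs). Intervals are 95% Poisson intervals and cover counting error only, since PCR copies are not independent molecules. Uniqueness was measured over 31-base words of the transcript sequences.

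Named were all 7 genes and their transcripts with at least 5% of the gene's TPM in a line, or else the leading 2. For *Utrn* and *Dag1* the 3 nearest genes were named as well, and from wider lists a few genes with their values. Other transcripts and the windows at start sites were added after their values were seen, as was the repeat of the order of lines with TMM and DESeq2 scaling. The genes, lists and tests were chosen with earlier results of these data known. Promoter windows of 300 bases came from RefSeq (GRCm38.p6), which had entries for 4 of the 7 genes in the part used here. Alternatives were a pseudocount of 0.1, CPM, TMM (edgeR 4.0.16) and DESeq2 1.42.0 scaling on rounded gene counts, protein-coding transcripts only, other filters and folds, and leaving out each line. Work was done in R 4.3.3 and in Python 3.11.15 (scipy 1.17.1, pandas 2.3.3, numpy 2.4.6, with plots by matplotlib 3.10.9). Values of 3 genes of the wider lists are not reported here.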

Additional observations from a re-analysis of the deposited data

How the results depend on the processing

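No alternative changed the direction of a paralog difference. The order of *Dtnb* and *Sntb2* turned with CPM and over protein-coding transcripts. Without division by length (CPM), the mean level in log2(CPM + 1) was 7.77 for *Utrn*, 8.12 for *Dag1*, 6.37 for *Sntb1*, 5.87 for *Sntb2*, 6.13 for *Dtna*, 4.23 for *Dtnb* and 0.63 for *Nos1*, against 5.17, 6.26, 4.83, 3.37, 4.84, 3.85 and 0.10 in log2(TPM + 1). With a pseudocount of 0.1 the level was 3.24 for *Sntb2*, 3.75 for *Dtnb* and -2.56 for *Nos1*. Over protein-coding transcripts alone *Dtnb* fell to 2.57, since most of its TPM belongs to other classes, and the share of *Utrn-201* was 77.3% and that of *Dtna-202* 37.9%. In shares of estimated counts, which weight long transcripts, *Utrn-201* held 85.0%, *Dag1-204* 64.0%, *Sntb2-203* 97.3% and *Dtna-202* 58.0%. At a threshold of 1.5-fold, 1 member was apart in place of 0.

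The paralog differences ranged from -0.50 to -1.54 for *Sntb2* minus *Sntb1*, from -0.82 to -2.19 for *Dtnb* minus *Dtna* and from 2.81 to 4.61 for *Utrn* minus *Dmd*. *Dtnb* minus *Dtna* was -1.90 with CPM and -2.19 over protein-coding transcripts. With each line left out, the levels and leading shares stayed within the spread between lines. No share of *Dtnb-219* over protein-coding transcripts exists, since it is not one. Depth limits *Nos1* and its forms, and shared sequence limits the split between *Utrn* transcripts and between *Dtnb* transcripts.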

Other observations

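Markers of nerve and glia were also read, since *Dtnb*, *Nos1* and the gamma-syntrophins are known from nervous tissue. Of 5 neuron markers, *Tubb3* and *Stmn2* were above 10 TPM in every line. Levels of *Tubb3* in lines 66, 67 and 72 were 38.5, 47.5 and 36.8 TPM. *Stmn2* had 18.9, 49.4 and 12.8 TPM and was over 2-fold apart between lines. *Syt1* had 1.27, 0.331 and 0.168 TPM. *Rbfox3*, a defining marker of mature neurons, had at most 3 counts in any line, and *Snap25* at most 0.259 TPM. Of 5 Schwann cell markers, *Sox10* and *S100b* had at most 3 counts in any line, whereas *Erbb3* had 6.05, 6.61 and 9.59 TPM.

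In *Dtnb*, transcripts annotated as targets of nonsense-mediated decay made up 53.5%, 27.6% and 40.7% of the gene's TPM in lines 66, 67 and 72. In this class *Dtnb-202* and *Dtnb-204* have 0% of their 31-base words to themselves, and *Dtnb-219* has 1.36%. The split between this class and coding transcripts was therefore an estimate. In *Utrn* that class made up at most 0.940%. The difference between the genes was not tested.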
